A study of Mus musculus with 22 samples.

Results

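Bdnf and 9 genes of neurotrophin signalling and secreted synaptic plasticity were followed through every library of the study. The 10 genes, Bdnf, Ntf3, Ntrk2, Ntrk3, Sort1, Sorcs3, Nrn1, Nptx1, Nptx2 and Vgf, were taken as the rows of the count table whose Ensembl identifier carries these mouse symbols, and all 10 were found among the 39056 genes of the table. The set was chosen by role with the fold changes and levels of the same libraries between treated and Control mice already known, and these measured values count as having chosen it. Their differences from Control are therefore given as a description, from which nothing is tested. The same holds for the interactions and the comparison of treated groups with each other, which are built on these. TRAP against total-RNA within treated mice uses the same levels, so its adjusted p-values are a description too. Ntf3 had 283 counts over all 22 libraries, under the minimum of 500, and was not tested. The other 9 were among the 14072 genes tested.

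Brain-derived neurotrophic factor (Bdnf) and neurotrophin-3 (Ntf3) are secreted proteins that neurons release and sense through Trk receptor tyrosine kinases, TrkB (Ntrk2) for Bdnf and TrkC (Ntrk3) for neurotrophin-3. Sortilin (Sort1) and its relative Sorcs3 are sorting receptors of the Vps10p family, and sortilin binds the Bdnf precursor. Neuritin (Nrn1), the neuronal pentraxins (Nptx1 and Nptx2) and Vgf act at or are released near synapses, where pentraxins gather AMPA-type glutamate receptors, and Bdnf, Nrn1, Nptx2 and Vgf are known as genes whose transcription follows neuronal activity. In the cortex Bdnf transcript is made mainly by excitatory neurons.

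The RNA came from the prefrontal cortex (PFC) of 11 adult male mice on a C57BL/6J background, all of which carried both a CaMKIIα-tTA driver and a tetO-EGFP/Rpl10a transgene, so that cells using the CaMKIIα promoter tag a ribosomal protein with EGFP. Mice received 2 intraperitoneal injections per day, 2 h apart, for 4 days, of saline (Control, n = 3) or of ethanol to 2 g/kg per day (EtOH, n = 4), and a further 4 mice received the same ethanol with the PARP inhibitor ABT-888 at 25 mg/kg on day 4 (EtOH + ABT-888). PFC was taken 2 h after the last injection, and each mouse gave a library of RNA pulled down with tagged ribosomes (TRAP) and a library of the cleared homogenate from which the pull-down was made (total-RNA). No group received ABT-888 without ethanol, so that the action of ABT-888 on its own cannot be told apart from its action with ethanol. Levels are given as normalized CPM, the counts of a library scaled to a common total with TMM factors over the 22 libraries, as mean ± SD over mice.

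Marker genes were examined before the results. The TRAP libraries held between 6570957 and 22002618 counts and the total-RNA libraries between 22132534 and 32421392, and the smallest belonged to mouse 6 of EtOH + ABT-888_TRAP. Astrocyte, oligodendrocyte, microglia and endothelial markers were depleted from TRAP, with summed astrocyte levels (6 genes) of 43.7 to 207 normalized CPM in TRAP and 915 to 1189 in total-RNA. The excitatory neuron list went against the label of cortical pyramidal neurons in part. Camk2a did not pass the threshold between TRAP and total-RNA of Control mice (log2 fold change -0.17 ± 0.11 (SE), adjusted p = 0.203, edgeR's quasi-likelihood test). The other 3 genes read here, Slc17a7, Neurod6 and Tbr1, were lower in TRAP in every treatment. Summed over these 4 genes the level was 2287 to 2563 normalized CPM in Control_TRAP and 2852 to 3496 in Control_total-RNA. The 4 striatal neuron markers (Drd1, Drd2, Adora2a and Ppp1r1b) were all higher in TRAP, with a summed level of 3453 to 5392 against 418 to 852 in total-RNA, and of the 6 interneuron markers Gad1, Gad2 and Slc32a1 were higher too, while Pvalb was lower (6.34 normalized CPM in Control_TRAP and 31.9 in Control_total-RNA) and Sst and Vip did not pass in Control mice. Of the 35 marker genes read, Cx3cr1, a microglia gene, was at 0 in 2 of the 4 libraries of EtOH + ABT-888_TRAP, and none of the others was at 0 in any library. The pulled-down RNA is therefore called TRAP here and not RNA of cortical pyramidal neurons, and the part that the makeup of the pulled-down cells has in the results below was not tested.

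Bdnf (chr2:109674700-109727007, plus strand, mm10) was the member at the lowest level per length apart from Ntf3. In Control_total-RNA it stood at 38.1 ± 3.35 normalized CPM (n = 3) and in Control_TRAP at 11.0 ± 2.24 (n = 3), which rests on 108 to 227 counts per TRAP library. Ntf3 (chr6:126101412-126166910, minus strand) reached 1.68 normalized CPM at most and was without a count in 4 TRAP libraries, so its counts are too few for a comparison here. Bdnf is transcribed from several alternative start sites, and its mature protein is encoded by the shared last exon, so a count per gene adds up all start sites. A long non-coding gene on the opposite strand, Gm45346, covers 896 of the 6217 exon bases of Bdnf. The strand setting of the counting is not stated, so reads of the pair may not have been told apart.

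The start sites of Bdnf are shown because the gene is read as a single sum here while its promoters differ in sequence. RefSeq (GRCm38.p6) lists 7 promoter windows of Bdnf, each from 250 bases before to 50 bases after a start. Among the 10 genes, Bdnf, Ntf3, Ntrk2 and Sorcs3 had windows in the table, 11 in all. The letters of 4 short motifs were searched on both strands: the full cyclic AMP response element (TGACGTCA), its core (CGTCA), the E-box (CANNTG) and the AP-1 site (TGANTCA). The full element contains the core on both strands. Of the 7 Bdnf windows, 6 held the E-box, 1 held the core and 1 held the AP-1 letters, and 0 held the full element. The core stood in 20.8% of all 32851 promoter windows of this length, the AP-1 letters in 7.81%, the full element in 1.79% and the E-box in 72.3%. The window with AP-1 letters is chr2:109676782-109677081 and the window with the core is chr2:109692186-109692485, both on the plus strand, with the matching letters in capitals.
Bdnf window with AP-1 letters: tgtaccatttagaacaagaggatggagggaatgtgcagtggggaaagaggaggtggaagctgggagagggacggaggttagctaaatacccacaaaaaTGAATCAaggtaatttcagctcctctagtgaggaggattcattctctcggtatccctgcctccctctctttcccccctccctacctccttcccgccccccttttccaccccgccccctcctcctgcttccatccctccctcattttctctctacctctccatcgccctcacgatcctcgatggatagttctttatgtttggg
Bdnf window with the core: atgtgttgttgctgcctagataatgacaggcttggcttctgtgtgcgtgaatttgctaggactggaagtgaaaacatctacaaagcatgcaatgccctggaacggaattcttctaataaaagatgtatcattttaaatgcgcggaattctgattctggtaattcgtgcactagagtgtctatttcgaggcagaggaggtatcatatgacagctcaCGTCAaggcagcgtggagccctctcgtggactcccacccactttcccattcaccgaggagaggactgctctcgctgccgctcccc
The AP-1 letters begin at base -152 and the core at base -35 from the start. These matches describe letters in the windows and no binding was measured.

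**Figure D1:**
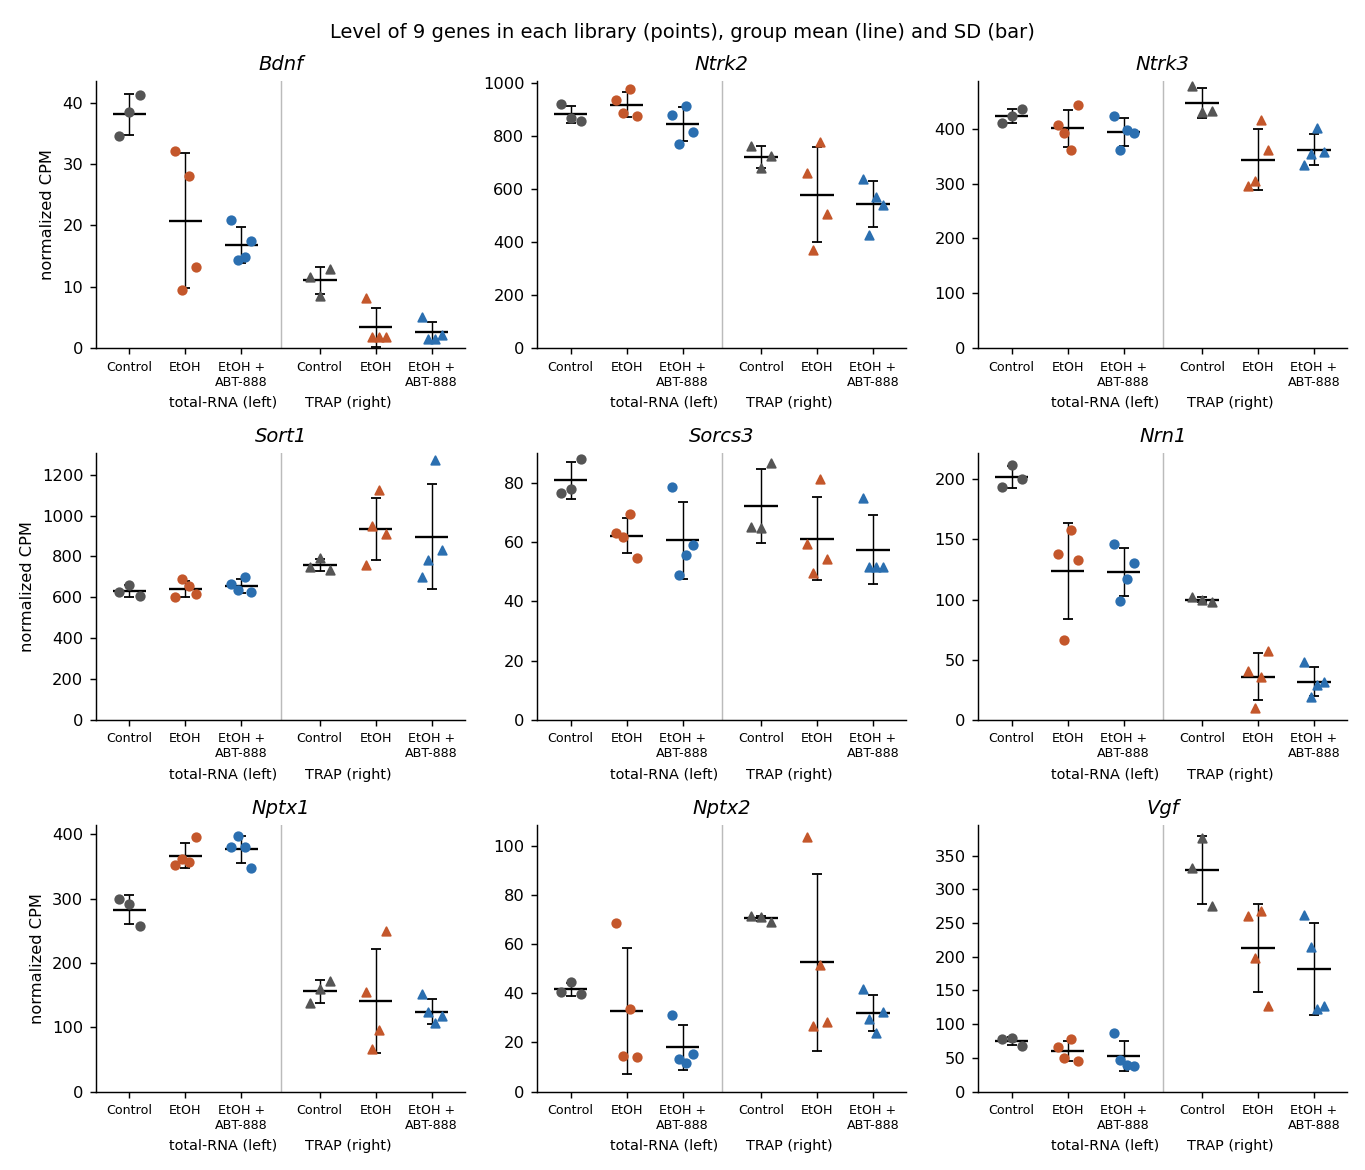
Each panel shows the normalized CPM (vertical axis, linear, from 0) of 1 gene in every library, with circles for total-RNA, triangles for TRAP, a line for the group mean and a bar for the SD (n = 3 Control, 4 EtOH and 4 EtOH + ABT-888 mice). Bdnf, Nrn1 and Nptx1 sit lower in TRAP than in total-RNA, Vgf sits higher in TRAP, and the treated mice spread widely in Bdnf and Nptx2.

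The order of the 10 genes per length differed between the 2 kinds of library. Per kilobase of exon, Control_TRAP was led by Vgf at 110 ± 17 normalized CPM per kb and Sort1 at 100 ± 3.99, whose ranges overlapped, followed by Nrn1 at 44.4 ± 0.982 and Ntrk2 at 37.4 ± 2.22. Control_total-RNA was led by Nrn1 at 89.9 ± 4.16 and Sort1 at 83.4 ± 3.67, which overlapped as well, and Vgf came at rank 5 with 25.3 ± 2.07. In both, Ntrk3, Sorcs3, Bdnf and Ntf3 closed the list, with Bdnf at 1.77 ± 0.36 in TRAP and 6.13 ± 0.538 in total-RNA. Nptx1 and Nptx2 overlapped in TRAP and were separate in total-RNA.

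TRAP was compared with total-RNA to see which transcripts were over- or under-represented on the tagged ribosomes. In Control mice 7 of the 9 genes differed (59.9% of all tested genes did), of which 3 were higher in TRAP (29.5% of all genes) and 4 lower (30.4%), at an adjusted p under 0.05 in edgeR's quasi-likelihood test, with the Benjamini-Hochberg method applied over 14072 genes. In EtOH mice 6 differed (50.7% of all genes), 2 higher (24.3%) and 4 lower (26.5%). In EtOH + ABT-888 mice 6 differed (41.0%), 2 higher (19.5%) and 4 lower (21.5%). A difference of this kind was thus common among all genes. In EtOH and EtOH + ABT-888 mice the levels compared helped to choose the genes, so the values, adjusted p and calls of the members there are a description.

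Among the ligands and receptors of the chosen set, Bdnf was the gene most depleted from TRAP. In Control mice 1, 4 and 7 it read 11.5, 8.53 and 12.9 normalized CPM in TRAP against 34.6, 38.4 and 41.3 in total-RNA, 2 ranges far apart. The log2 fold change of TRAP over total-RNA was -1.82 ± 0.16 in Control (adjusted p = 2.73e-06, edgeR), -2.68 ± 0.56 in EtOH (adjusted p = 0.00189) and -2.72 ± 0.39 in EtOH + ABT-888 (adjusted p = 0.000233). Within single mice the TRAP level was between 0.065 and 0.333 of the total-RNA level, below 1 in 11 of 11 mice. Ntrk2, the receptor of Bdnf, which astrocytes also express, was lower in TRAP by less, with log2 fold changes of -0.30 ± 0.09, -0.68 ± 0.20 and -0.64 ± 0.14 in the same order of treatments (adjusted p = 0.00918, 0.012 and 0.00451, edgeR) and a ratio below 1 in 11 of 11 mice. The first of these calls ended without the total-RNA library of Control mouse 1 (adjusted p = 0.0502, edgeR), where the log2 fold change was -0.27. Ntrk3 did not pass in any treatment, with log2 fold changes of 0.06 ± 0.08, -0.24 ± 0.14 and -0.12 ± 0.12, and between -0.33 and 0.09 without any 1 library.

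The sorting receptors were split. Sort1 was higher in TRAP in Control (log2 fold change 0.25 ± 0.08, adjusted p = 0.0211, edgeR) and in EtOH (0.53 ± 0.14, adjusted p = 0.00661), and in EtOH + ABT-888 it read 0.45 ± 0.18 (adjusted p = 0.0638). With the mouse as a block, which pairs the libraries of a mouse, the last value was 0.41 with an adjusted p of 0.0177 (edgeR), and without the TRAP library of mouse 3 it was 0.55 (adjusted p = 0.0286, edgeR), while without the TRAP library of mouse 10 it was 0.22 (adjusted p = 0.167, edgeR). The Control call was lost without the total-RNA library of mouse 1 (log2 fold change 0.24) or of mouse 7 (0.21). In each of the 11 mice the ratio of TRAP to total-RNA was above 1, from 1.05 to 1.82. A gene on the opposite strand, Gm12523, shares 338 of the 7569 exon bases of Sort1, and reads of the pair may not have been told apart. Sorcs3 did not pass, at -0.17 ± 0.12, -0.04 ± 0.17 and -0.08 ± 0.19, although it passed in Control mice without the TRAP library of mouse 7 (-0.33, adjusted p = 0.0197, edgeR) and was nearest to 0 there without the TRAP library of mouse 4 (-0.09).

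The secreted plasticity factors moved in both directions. Vgf, the precursor of several secreted peptides, was the member most enriched in TRAP, at 331, 376 and 275 normalized CPM in TRAP of Control mice 1, 4 and 7 against 78.5, 79 and 68.1 in total-RNA. Its log2 fold change was 2.11 ± 0.12 in Control, 1.81 ± 0.24 in EtOH and 1.78 ± 0.32 in EtOH + ABT-888 (adjusted p = 1.96e-07, 0.000104 and 0.00103, edgeR), with a ratio between 2.8 and 4.76 over the 11 mice. Nrn1 went the other way, at 102, 99.8 and 97.8 in TRAP against 194, 212 and 200 in total-RNA of the same mice. Its log2 fold change was -1.03 ± 0.08, -1.81 ± 0.42 and -1.95 ± 0.25 (adjusted p = 1.61e-06, 0.00376 and 0.00012, edgeR), with a ratio of 0.152 to 0.527.

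The 2 pentraxins moved apart. Nptx1 was lower in TRAP, by log2 fold changes of -0.87 ± 0.10, -1.39 ± 0.32 and -1.60 ± 0.14 (adjusted p = 2.92e-05, 0.00358 and 1.15e-05, edgeR), below 1 in 11 of 11 mice. Nptx2 was higher, at 71.5, 71 and 69.3 normalized CPM in Control_TRAP against 40.7, 44.8 and 39.6 in Control_total-RNA, a log2 fold change of 0.74 ± 0.09 (adjusted p = 3.95e-05, edgeR). This Control call was lost when all libraries shared a fit (0.76, adjusted p = 0.238, edgeR). In EtOH the Nptx2 difference was 0.66 ± 0.53 (adjusted p = 0.32, edgeR) with a wide error, and with the mouse as a block it was 0.76 with an adjusted p of 0.000575. The 2 libraries of mouse 2 moved it in opposite directions, to 0.11 without the TRAP library (adjusted p = 0.867, edgeR) and to 1.33 without the total-RNA library (adjusted p = 0.0439, edgeR). In EtOH + ABT-888 it was 0.83 ± 0.31 (adjusted p = 0.0499, edgeR), a call lost without any of 6 of the 8 libraries, TRAP of mice 3, 6 and 11 and total-RNA of mice 6, 10 and 11, where the log2 fold change ran from 0.67 to 0.86, and also lost with RLE size factors and when all libraries shared a fit. Its ratio was above 1 in all 11 mice, from 1.33 to 2.23.

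**Figure D2:**
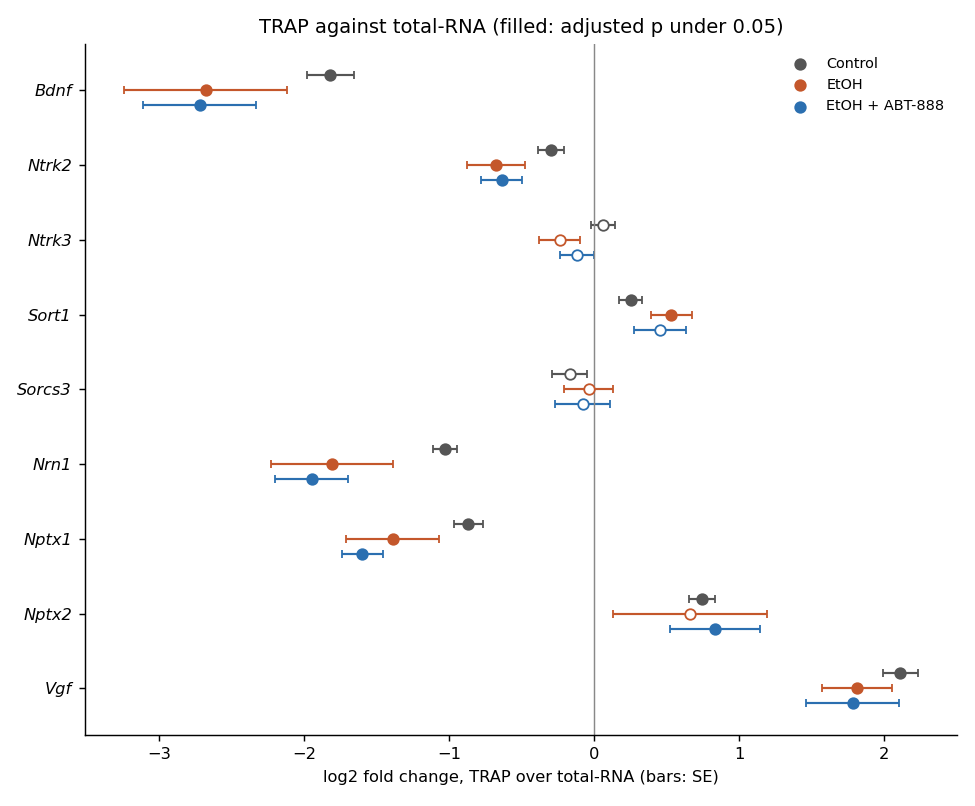
Log2 fold change of TRAP over total-RNA (horizontal axis) for 9 genes in Control (grey), EtOH (orange) and EtOH + ABT-888 (blue) mice, with bars for the SE and filled points where the adjusted p was under 0.05. Bdnf, Nrn1, Nptx1 and Ntrk2 lie left of 0 and Vgf, Nptx2 and Sort1 right of 0 in each treatment.

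The marker values stood beside these differences. In Control mice Slc17a7, the vesicular glutamate transporter of cortical excitatory neurons, read 412 ± 53.3 normalized CPM in TRAP and 889 ± 115 in total-RNA (log2 fold change -1.13 ± 0.12, adjusted p = 1.36e-05, edgeR), and Neurod6, a transcription factor of cortical excitatory neurons, read 21.5 ± 3.85 and 99.8 ± 5.87. Drd1 read 425 ± 54.6 and 73.9 ± 8.1. In these Control mice Bdnf, Nrn1, Nptx1 and Ntrk2 were lower in TRAP, and Vgf, Nptx2 and Sort1 were higher. Of the excitatory markers Slc17a7, Neurod6 and Tbr1 were lower in TRAP and Camk2a did not pass (-0.17 ± 0.11), while striatal markers were higher. The part of cell makeup in the ratios of the members was not tested.

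Other genes of the pathway were counted from lists. Of all tested genes 29.5% were higher and 30.4% lower in TRAP of Control mice, the shares against which these counts stand. Of 36 genes of Trk receptor signalling, 15 were higher and 10 lower, with a list median of 0.21 against 0.02 for all tested genes. Gab1, a docking protein, was lower (-2.43 ± 0.14) and Hras, a small GTPase, higher (1.71 ± 0.09). Of 13 genes that process or sort neurotrophins, 4 were higher and 7 lower (median -0.67), among them the proprotein convertase Pcsk6 (-1.84 ± 0.28), Cadps2, which takes part in release of dense-core vesicles (-1.71 ± 0.13), and Sorcs2, another Vps10p receptor (1.44 ± 0.12). Of 6 granins and relatives of Vgf, 3 were higher, with Pcsk1n at 1.40 ± 0.15 and Scg2 at 0.91 ± 0.10, and Scg3 was lower (list median 0.17). Of 7 partners of pentraxins and neuritin, 6 were tested, with Nptxr, the pentraxin receptor, lower (-1.01 ± 0.09), Gria4 and Adam17 lower, and Gria1, an AMPA receptor subunit, higher (0.60 ± 0.08). Of 26 other growth factors and receptors, 23 were tested, 3 higher and 18 lower (median -1.63), led by Kdr, Met, Fgfr3 and Fgf1. Of 13 activity-dependent transcripts, 8 were higher and 1 lower (median 0.99), led by Egr4 (1.80 ± 0.20) and Egr1 (1.48 ± 0.12).

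The treated mice were next set against Control mice, which asks how ethanol, with and without ABT-888, goes with the level of each gene in TRAP and in total-RNA. These values helped to choose the genes and are a description. The number of members past the threshold is given once beside the share of all genes, and nothing is read from it. In TRAP the fit over all genes called 1 member for EtOH (Nrn1, lower), where 5.24% of all genes were called and 2.47% lower, and 2 for EtOH + ABT-888 (Nrn1 and Nptx2, both lower), where 0.476% were called and 0.291% lower. In total-RNA it called 3 for EtOH (Nrn1 and Sorcs3 lower, Nptx1 higher), with 17.6% of all genes called, 9.04% higher and 8.6% lower, and 1 for EtOH + ABT-888 (Bdnf, lower), with 0.263% called and 0.0853% lower. When 1 library was left out, the Nrn1 and Nptx2 calls in TRAP were each lost in 5 of 7 fits. So were the total-RNA calls of Sorcs3 for EtOH and of Bdnf for EtOH + ABT-888. In EtOH_total-RNA the Nrn1 call was lost in 4 of 7 fits and the Nptx1 call in 3. The 2 treatments share their Control mice, so that their values are not independent.

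Bdnf in TRAP had 3 low mice and 1 high mouse in each treated group. It read 8.08, 1.72, 1.82 and 1.77 normalized CPM in EtOH mice 2, 5, 8 and 9 and 5.08, 1.5, 1.53 and 2.06 in EtOH + ABT-888 mice 3, 6, 10 and 11, all below the 8.53 to 12.9 of Control. The log2 fold change was -1.74 ± 0.50 for EtOH and -2.10 ± 0.43 for EtOH + ABT-888. Leaving out 1 library gave -2.60 (without mouse 2) to -1.52 for EtOH and -2.66 (without mouse 3) to -1.89 for EtOH + ABT-888. Counts behind these values were low, 26 to 111 in EtOH_TRAP and 10 to 62 in EtOH + ABT-888_TRAP.

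In total-RNA Bdnf read 32.1, 9.45, 28 and 13.2 in EtOH mice 2, 5, 8 and 9, 2 mice near Control (34.6 to 41.3) and 2 far below, with a log2 fold change of -0.88 ± 0.31. In EtOH + ABT-888 mice 3, 6, 10 and 11 it read 20.8, 14.3, 14.8 and 17.4, a tighter group, with a log2 fold change of -1.18 ± 0.15. The Bdnf ranges of treated and Control mice did not overlap in either kind of library, as held for 11.9% of all genes with EtOH_TRAP below Control_TRAP, 7.75% with EtOH + ABT-888_TRAP below, 15.8% with EtOH_total-RNA below Control_total-RNA and 8.62% with EtOH + ABT-888_total-RNA below. Without any 1 library the EtOH_total-RNA value ran from -1.17 (without mouse 2) to -0.63 (without mouse 5).

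Nrn1 had a narrow Control group and a broad treated one. Control_TRAP read 102, 99.8 and 97.8, EtOH_TRAP 40.4, 10.1, 35.6 and 57.3 in mice 2, 5, 8 and 9, and EtOH + ABT-888_TRAP 47.7, 18.8, 28.9 and 31.5 in mice 3, 6, 10 and 11. No treated library reached Control, and mouse 5 was the lowest. The log2 fold change was -1.47 ± 0.38 for EtOH and -1.64 ± 0.24 for EtOH + ABT-888 in TRAP. In total-RNA Control read 194, 212 and 200, EtOH 138, 66.2, 158 and 133, and EtOH + ABT-888 146, 99.1, 117 and 130, again with no overlap, at -0.71 ± 0.21 and -0.71 ± 0.13. Without any 1 library the Nrn1 values ran from -1.80 to -1.16 for EtOH_TRAP, from -1.89 to -1.48 for EtOH + ABT-888_TRAP and from -0.85 to -0.50 for EtOH_total-RNA. A gene on the opposite strand shares 501 of the 2249 exon bases of Nrn1 (chr13:36725361-36735131, minus strand).

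Nptx2 split the EtOH mice. Mouse 2 had the highest Nptx2 of all mice, 104 in TRAP and 68.7 in total-RNA, above Control (69.3 to 71.5 and 39.6 to 44.8), while mice 5, 8 and 9 read 26.8, 51.8 and 28.4 in TRAP and 14.5, 33.6 and 13.9 in total-RNA. For EtOH_TRAP this gave a log2 fold change of -0.42 ± 0.36, and for EtOH_total-RNA of -0.35 ± 0.41. Leaving out 1 library gave -0.95 (without mouse 2) to -0.21 for EtOH_TRAP and -1 (without mouse 2) to -0.10 for EtOH_total-RNA. In EtOH + ABT-888 all 4 mice lay below Control, at 41.7, 29.7, 23.8 and 32.6 in TRAP and 31.4, 13.3, 11.6 and 15.5 in total-RNA, with log2 fold changes of -1.13 ± 0.19 and -1.21 ± 0.29. The total-RNA value ran from -1.62 (without mouse 3) to -1.05 when 1 library was left out.

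Vgf in TRAP read 260, 198, 268 and 127 in EtOH mice 2, 5, 8 and 9 and 262, 215, 123 and 127 in EtOH + ABT-888 mice 3, 6, 10 and 11, below the 275 to 376 of Control by a narrow margin in the highest mice. Its log2 fold change was -0.60 ± 0.22 for EtOH and -0.84 ± 0.25 for EtOH + ABT-888 in TRAP, and -0.33 ± 0.16 and -0.51 ± 0.25 in total-RNA, where the ranges overlapped. Leaving out 1 library gave, for EtOH + ABT-888, -1.06 (without mouse 3) to -0.69 in TRAP and -0.85 (without mouse 3) to -0.39 in total-RNA, and, for EtOH in total-RNA, -0.48 (without mouse 8) to -0.22.

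Nptx1 was above Control in total-RNA of treated mice and overlapped it in TRAP. In total-RNA it read 353, 361, 357 and 396 in EtOH mice and 381, 398, 381 and 347 in EtOH + ABT-888 mice, all above the 257 to 300 of Control, at log2 fold changes of 0.38 ± 0.10 and 0.42 ± 0.10. An increase without overlap was found for 14.7% and 8.29% of all genes in these comparisons. In TRAP the EtOH mice spread from 66 to 250 around Control (137 to 172), at -0.13 ± 0.33, a value that turned to 0.10 without mouse 5 and was -0.57 without mouse 9, and EtOH + ABT-888 read -0.32 ± 0.16.

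The receptors differed by smaller amounts. Ntrk2 in total-RNA read 0.06 ± 0.09 for EtOH and -0.06 ± 0.09 for EtOH + ABT-888 on the log2 scale, and in TRAP -0.30 ± 0.20 and -0.40 ± 0.15, where EtOH mice spread from 371 to 778 normalized CPM. Ntrk3 read -0.08 ± 0.10 and -0.10 ± 0.09 in total-RNA and -0.36 ± 0.15 and -0.29 ± 0.14 in TRAP, where all 8 treated mice (296 to 416) were below Control (431 to 478). Sort1 read 0.02 ± 0.09 and 0.06 ± 0.09 in total-RNA, and 0.32 ± 0.15 and 0.26 ± 0.20 in TRAP, with up to 1274 normalized CPM in mouse 10. Sorcs3 was at -0.38 ± 0.11 and -0.42 ± 0.16 in total-RNA, where EtOH mice (54.8 to 69.4) did not overlap Control (76.6 to 88.1), and at -0.22 ± 0.19 and -0.32 ± 0.19 in TRAP. When 1 library was left out, Ntrk2 in TRAP ran from -0.49 (without mouse 8) to -0.15 (without mouse 5) for EtOH, Sort1 from 0.05 (without mouse 10) to 0.37 for EtOH + ABT-888, and Sorcs3 from -0.40 (without mouse 8) to -0.07 (without Control mouse 7) for EtOH and from -0.46 (without mouse 3) to -0.17 (without Control mouse 7) for EtOH + ABT-888. In total-RNA Sorcs3 ran from -0.43 to -0.31 for EtOH and from -0.57 to -0.33 for EtOH + ABT-888.

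**Figure D3:**
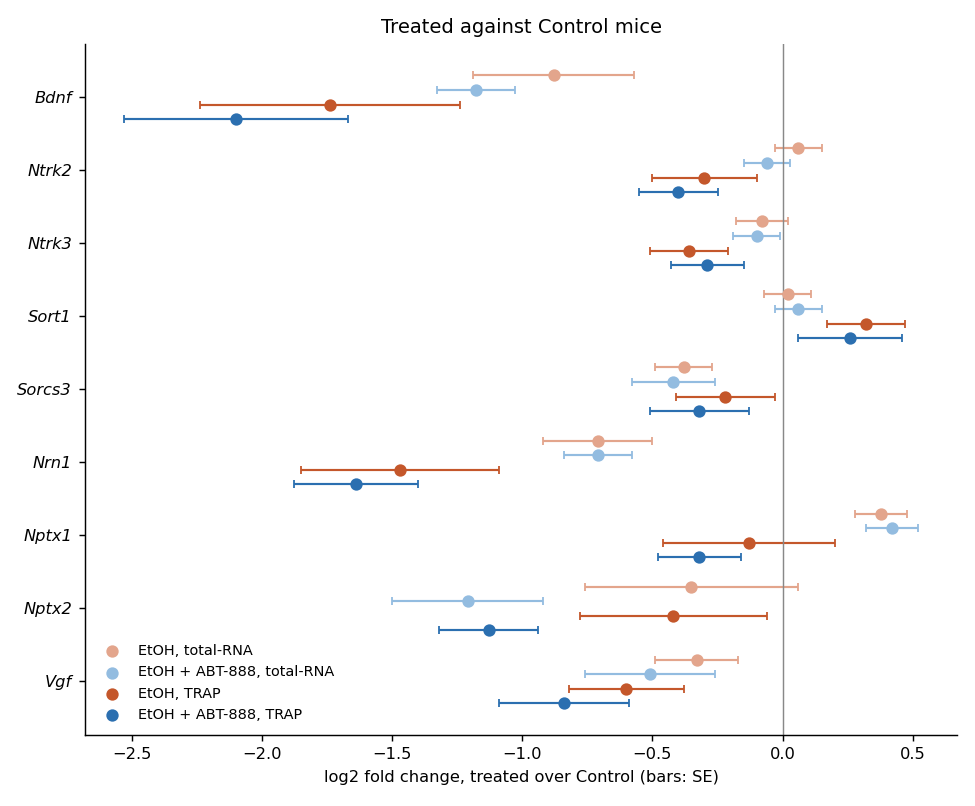
Log2 fold change of treated over Control mice (horizontal axis) for 9 genes, in total-RNA (pale) and TRAP (dark) for EtOH (orange) and EtOH + ABT-888 (blue), with bars for the SE. Bdnf and Nrn1 lie farthest left in TRAP, and Nptx1 lies right of 0 in total-RNA, at 0.38 and 0.42, and left of it in TRAP, at -0.13 and -0.32.

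The excitatory markers differed among themselves in TRAP of treated mice. The 4 genes summed to 2287 to 2563 normalized CPM in Control_TRAP, 2473 to 3142 in EtOH_TRAP and 2165 to 3159 in EtOH + ABT-888_TRAP, of which Camk2a made up the greater part. Neurod6 was called lower in both treatments (21.5 ± 3.85 in Control_TRAP, 6.69 ± 2.72 in EtOH_TRAP and 6.4 ± 2.82 in EtOH + ABT-888_TRAP), while Slc17a7 (-0.77 ± 0.34 and -0.95 ± 0.20) and Tbr1 (-1.10 ± 0.41 and -1.14 ± 0.24) were not called. Camk2a went the other way, at 0.47 ± 0.13 and 0.30 ± 0.17, and was not called. In total-RNA Neurod6 was called lower too, at 99.8 ± 5.87 in Control, 50.1 ± 11.8 in EtOH and 57.2 ± 9.68 in EtOH + ABT-888, beside the lower Bdnf there. Summed without Camk2a, a split chosen after the values were seen, the 3 genes read 443 to 555 in Control_TRAP, 122 to 469 in EtOH_TRAP and 209 to 352 in EtOH + ABT-888_TRAP, and 1040 to 1260, 951 to 1110 and 955 to 1260 in total-RNA. In bulk samples fewer cells of a type and less RNA per cell cannot be told apart.

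The levels set against excitatory markers depended on whether Camk2a was among them. Per 100 normalized CPM of all 4 markers, Bdnf in TRAP was 0.464 ± 0.119 in Control, 0.118 ± 0.112 in EtOH and 0.104 ± 0.0773 in EtOH + ABT-888, and Nrn1 was 4.19 ± 0.259, 1.21 ± 0.597 and 1.27 ± 0.548, each below Control in all 8 treated mice. Vgf on this scale was 13.6 ± 1.41, 7.56 ± 2.4 and 7.52 ± 3.63, with all 8 treated mice below Control too, and Nptx2 was below Control (2.77 to 3.07) in EtOH + ABT-888 (0.755 to 1.79) and overlapped it in EtOH (0.905 to 3.67). In total-RNA Bdnf per 100 of the 4 markers was 1.01 to 1.45 in Control, 0.257 to 0.995 in EtOH and 0.366 to 0.591 in EtOH + ABT-888, and Nrn1 was 5.67 to 7.02, 1.8 to 4.3 and 2.54 to 4.14, with no overlap between treated and Control mice for either gene. There Nptx2 was below Control (1.19 to 1.39) in EtOH + ABT-888 (0.324 to 0.891) and overlapped it in EtOH (0.393 to 2.13), and Vgf was below Control (2.26 to 2.39) in EtOH (1.35 to 2.12) and overlapped it in EtOH + ABT-888 (1.08 to 2.45). Set against the 3 markers without Camk2a, Bdnf and Nrn1 in TRAP were below Control in EtOH + ABT-888 mice and overlapped Control in EtOH mice. Per 100 normalized CPM of the 3 markers, Bdnf in TRAP was 2.18 ± 0.517 in Control, 1.27 ± 0.808 in EtOH (0.377 to 2.3, overlapping Control) and 0.937 ± 0.35 in EtOH + ABT-888 (0.698 to 1.45, below the 1.6 to 2.6 of Control). Nrn1 was 19.8 ± 2.91 in Control, 12.8 ± 4.65 in EtOH (8.27 to 19.3, overlapping Control) and 12.4 ± 2.43 in EtOH + ABT-888 (8.73 to 13.8, below the 17.6 of the lowest Control). Nptx2 (14 ± 1.89 in Control, 21.4 ± 10.7 in EtOH and 12.7 ± 1.25 in EtOH + ABT-888) and Vgf (64.9 ± 13.5, 102 ± 63.2 and 71.6 ± 20.9) overlapped Control in both treated groups in TRAP against these 3 markers. In total-RNA Bdnf per 100 of the 3 markers was 3.31 ± 0.571 in Control, 1.98 ± 1.03 in EtOH and 1.54 ± 0.3 in EtOH + ABT-888, where EtOH (0.882 to 3.15) overlapped Control (2.9 to 3.96). Nrn1 was 17.5 ± 1.53, 12 ± 3.87 and 11.3 ± 2.43, below Control in all 8 treated mice, while Nptx2 was below Control (3.41 to 3.8) in EtOH + ABT-888 (1.06 to 2.58) and overlapped it in EtOH (1.35 to 6.75), and Vgf overlapped it in both treated groups. No test was made of these quotients.

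**Figure D4:**
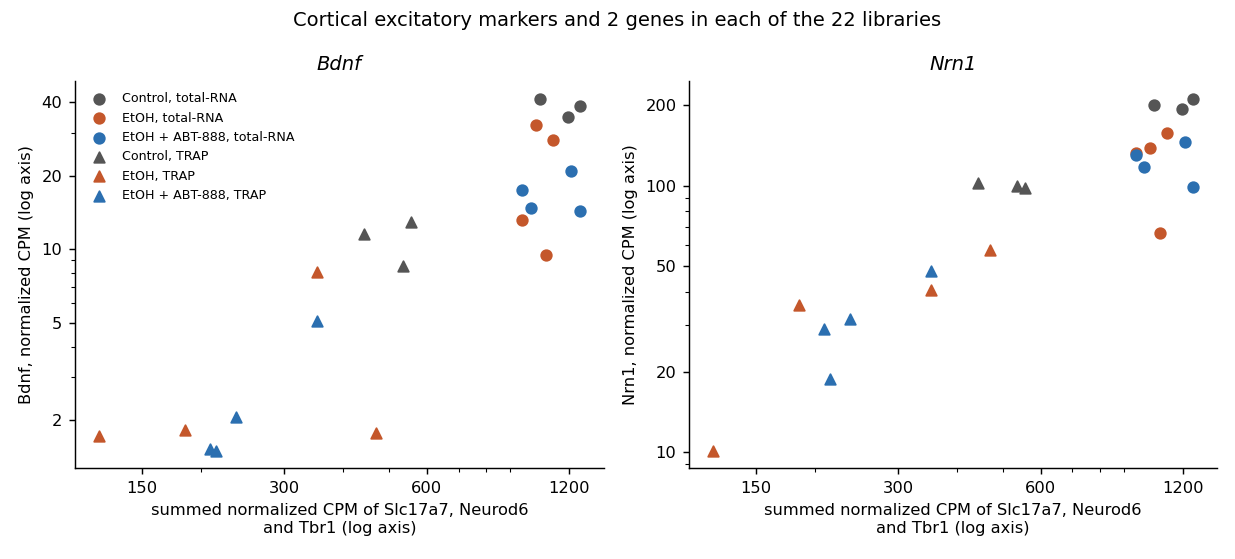
Level of Bdnf (left) and Nrn1 (right) in each of the 22 libraries against the summed level of 3 cortical excitatory markers (Slc17a7, Neurod6 and Tbr1), both in normalized CPM on log axes, with circles for total-RNA and triangles for TRAP. Of the 8 treated TRAP libraries, 7 have marker sums below those of Control (443 to 555), EtOH mouse 9 has a sum of 469 within them, and treated total-RNA libraries have sums of 951 to 1260. EtOH mouse 9 in TRAP has Bdnf at 1.77.

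Other markers differed as well. The microglia list summed to 219 to 233 normalized CPM in Control_total-RNA, 76 to 110 in EtOH_total-RNA and 61.5 to 176 in EtOH + ABT-888_total-RNA. In EtOH_total-RNA 4 of its 5 genes were called lower (8.6% of all genes). The striatal list summed to 3453 to 4730 in Control_TRAP, 4049 to 5392 in EtOH_TRAP and 3984 to 5265 in EtOH + ABT-888_TRAP, with Drd2 called lower in EtOH_TRAP (-0.56 ± 0.14) and Ppp1r1b higher in EtOH_total-RNA (0.67 ± 0.15). The oligodendrocyte list summed to 310 to 406 in Control_TRAP, 289 to 662 in EtOH_TRAP and 292 to 1365 in EtOH + ABT-888_TRAP, and its gene Mobp was called higher in EtOH_total-RNA (0.79 ± 0.13). In EtOH_total-RNA Gfap (0.75 ± 0.23) and Gad2 (0.40 ± 0.11) were called higher and Aqp4 (-0.41 ± 0.11) and Flt1 (-0.45 ± 0.14) lower as well, and in EtOH_TRAP the microglia gene P2ry12 was called lower (-3.46 ± 0.61). Of all genes, 17.6% were called in EtOH_total-RNA and 5.24% in EtOH_TRAP. The part of these marker differences in the values of the members was not tested.

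Within each treated group, the mice highest in Bdnf in total-RNA also had the highest levels of most activity-dependent transcripts, a pattern noted after the values were seen and not tested. It did not extend to Control mice, where Bdnf was higher (34.6 to 41.3). Against mice 2, 8 and 3 the total-RNA levels of Control mice lay below for 4 of the 13 transcripts, above for 1 (Homer1) and overlapped for 8. In EtOH + ABT-888, mouse 3 had the highest level of 12 of the 13 transcripts in TRAP and of 12 in total-RNA, with Arc, a synaptic immediate early gene, at 156 against 19.8 to 36.7 in the other total-RNA libraries. In EtOH, mice 2 and 8 shared the highest levels, 6 transcripts each in TRAP and 7 and 6 in total-RNA, where Fosb read 30.6 in mouse 2 and Fos 30.4 in mouse 8. In total-RNA Bdnf was highest in mice 2 and 8 of EtOH, at 32.1 and 28, and in mouse 3 of EtOH + ABT-888, at 20.8, while in TRAP mouse 8 had Bdnf at 1.82 beside the low mice. Both libraries of a mouse share the animal, so they are not independent readings.

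As a list, the 13 activity-dependent transcripts gave 4 calls in EtOH_TRAP (5.24% of all genes), with Npas4 (-2.88 ± 0.71), Arc (-1.29 ± 0.33) and Homer1 (-0.64 ± 0.17) lower and Junb higher (0.89 ± 0.24), and a list median of -0.64 against 0.02 for all genes. In EtOH_total-RNA 2 were called (17.6% of all genes), Junb higher (1.06 ± 0.25) and Homer1 lower (-0.40 ± 0.12), with a median of -0.33 against 0. With EtOH + ABT-888 edgeR's quasi-likelihood test called 0 of them in either kind of library (0.476% of all genes in TRAP and 0.263% in total-RNA), with medians of -0.65 in TRAP and -0.49 in total-RNA.

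Downstream of the receptors, 4 of 36 Trk signalling genes were called in EtOH_TRAP (5.24% of all genes), with Gab2, a docking protein, higher (1.02 ± 0.23) and Rps6ka3 (-0.81 ± 0.13), Akt2 (-0.72 ± 0.14) and Hras (-0.49 ± 0.13) lower. In EtOH_total-RNA 11 were called, 6 higher and 5 lower, where 17.6% of all genes were, with the kinase Akt2 (-1.02 ± 0.12) and the adaptor Shc3 (-0.97 ± 0.14) lower and Sh2b2 (1.00 ± 0.24) and Gab2 (0.69 ± 0.15) higher. The list medians were 0.06 and 0.04. In EtOH + ABT-888 0 were called by edgeR, where 0.476% of all genes in TRAP and 0.263% in total-RNA were.

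Of the 13 processing and sorting genes, 1 was called in EtOH_TRAP (5.24% of all genes), Pcsk7, a proprotein convertase, higher (1.09 ± 0.17). In EtOH + ABT-888_TRAP 1 was called (0.476% of all genes), Cadps2, lower (-1.13 ± 0.21). In EtOH_total-RNA 4 were higher and 2 lower (9.04% and 8.6% of all genes), led by the protease Mmp9 (1.24 ± 0.27), the convertase Furin (0.61 ± 0.15), Pcsk1 (-0.60 ± 0.18) and the sorting receptor Sorl1 (-0.56 ± 0.10), with a list median of -0.05. Among pentraxin and neuritin partners Gria4, an AMPA receptor subunit, was lower with EtOH in both TRAP (-0.74 ± 0.16) and total-RNA (-0.58 ± 0.12), where Adam17 was lower and Gria1 higher too. Among granins Scg5 was higher with EtOH in TRAP (0.55 ± 0.14) and total-RNA (0.37 ± 0.11). Among the 23 other growth factor genes tested, Inhba, an activin subunit, was lower with EtOH in TRAP (-1.69 ± 0.45) and total-RNA (-1.37 ± 0.26), and in total-RNA Nrtn was higher (1.49 ± 0.41) and Met (-0.88 ± 0.23) and Vegfa (-0.74 ± 0.14) lower, with 7 called in all (17.6% of all genes). Ngfr, the receptor that all neurotrophins bind, was not called in any comparison with Control.

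EtOH + ABT-888 was compared with EtOH, which sets ethanol-treated mice with ABT-888 beside those without. The comparison is built on the levels and differences from Control that helped to choose the genes. Its values are a description, and nothing is read from the number called. Of the members 0 passed edgeR's quasi-likelihood test, and 0 of the 14072 genes did (0.0% of genes for TRAP and for total-RNA). An unadjusted p under 0.05 was found for 136 genes of TRAP and 269 of total-RNA, with 0 members among them. DESeq2 and exactTest called 0 members as well, with 0 genes in TRAP and 2 genes each in total-RNA. All 9 members overlapped between the 2 treated groups in both kinds of library. The largest log2 differences were in Nptx2, -0.71 ± 0.36 in TRAP and -0.87 ± 0.47 in total-RNA, which ran from -0.93 to -0.18 and from -1.28 to -0.20 when 1 library was left out, nearest to 0 without EtOH mouse 2 in both cases. Bdnf differed by -0.37 ± 0.60 in TRAP, which turned to 0.50 without EtOH mouse 2, and by -0.30 ± 0.32 in total-RNA, which ran from -0.54 (without EtOH mouse 5) to -0.01 (without EtOH mouse 2). Nrn1 differed by -0.18 ± 0.39 in TRAP (-0.48 to 0.16 without any 1 library) and by -0.01 ± 0.22 in total-RNA (-0.22 to 0.13). Whether a difference of a given size in Bdnf or Nptx2 would have been detected was not tested.

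The interaction is the change from Control in TRAP less that in total-RNA. It is built on the differences from Control that helped to choose the genes, so its values are a description, and nothing is read from the number called. Of the members edgeR's quasi-likelihood test called 0, beside 3 of 14072 genes for EtOH (0.0213% of genes) and 0 for EtOH + ABT-888 (0.0%), with an unadjusted p under 0.05 for 685 and 476 genes and for 0 members. DESeq2 called 0 members too, among 16 and 4 genes. For Bdnf the additional log2 change in TRAP came to -0.87 ± 0.67 (EtOH) and -0.92 ± 0.68 (EtOH + ABT-888), and with the mouse as a block to -0.97 and -1.02. Leaving out 1 library gave -1.75 (without the TRAP library of EtOH mouse 2) to -0.57 (without the total-RNA library of that mouse) for EtOH, and -1.49 (without the TRAP library of mouse 3) to -0.71 for EtOH + ABT-888. For Nrn1 the values were -0.78 ± 0.51 (-1.10 to -0.46 without any 1 library) and -0.93 ± 0.51 (-1.19 to -0.76), and for Nptx1 -0.52 ± 0.37 (-0.95 to -0.28) and -0.75 ± 0.37 (-0.86 to -0.67). The lowest and the highest EtOH values of both genes came without the TRAP libraries of mouse 9 and mouse 5.

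The genes whose levels followed Bdnf and Nrn1 most closely over the 22 libraries were found by the root mean square difference of log2 CPM, each gene centred on its own mean. For Bdnf these were Plcb3 (0.494), Neurod6 (0.512), C1ql3 (0.526), Psd2 (0.568) and Ddah1 (0.609), where the SD of Bdnf itself was 1.648. Nrn1 was at rank 32 of all genes for Bdnf, with a difference of 0.72, and the other members were farther. For Nrn1 they were Megf11 (0.268), Cbln2 (0.273), Car10 (0.311), Cck (0.316) and Sema5a (0.347), and Bdnf was at rank 533. The libraries of both kinds and all treatments enter this measure, so that the step between TRAP and total-RNA is part of it.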

How the data were processed

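RNA from TRAP pull-down and from the supernatant of the centrifuged homogenate before pull-down (total-RNA) of the PFC of 11 mice was sequenced after depletion of ribosomal RNA, giving 22 libraries. The authors aligned reads with STAR to mm10, counted them per Ensembl gene with featureCounts, and deposited a table of raw counts, whole reads that were not normalized. Tool versions and the strand setting are not given in the sources used here. The table held 39056 genes, of which 38872 matched the mouse GENCODE release M21 and 184 did not. Genes with at least 500 counts in total and a count in at least 3 libraries were tested (14072), and 24984 were left out. Library totals ran from 6570957 to 22002618 counts (TRAP) and from 22132534 to 32421392 (total-RNA).

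Counts were scaled with TMM and tested with the quasi-likelihood F-test of edgeR 4.0.16 in R 4.3.3 (limma 3.58.1) over the libraries of the groups compared, or over all 22 for interactions, with a prior count of 1 for log values. P-values were adjusted by the Benjamini-Hochberg method over all genes tested, with a threshold of 0.05. The scripts were tested on simulated data. TRAP and total-RNA libraries of a number come from the same mouse by the animal id in the labels, and the correlation of their deviations from the group means was 0.102 to 0.622 over the 11 mice. As alternatives, DESeq2 1.42.0 without independent filtering, exactTest (for interactions the likelihood ratio test), RLE size factors, no filter, the mouse as a block, a single fit over all libraries and leaving out each library were run.

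All 10 genes are named, with up to 4 examples per list, those with the greatest absolute log2 fold change, and the 5 genes of the nearest levels. The genes and lists were chosen with earlier results of these data known, and a few listed genes are not reported here and were left out of the counts and sums. Promoter sequences came from RefSeq (GRCm38.p6).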

Additional observations from a re-analysis of the deposited data

Results flagged for a closer look

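In 4 of 40 groups of 4 libraries, 1 library stood far from the other 3 by its gap over the range of the group (past the 95% critical value of Dixon's test), where chance alone gives about 1 in 20. Groups of 3 were not tested. Bdnf read 8.08 normalized CPM in mouse 2 of EtOH_TRAP, with the others between 1.72 and 1.82. Bdnf read 5.08 in mouse 3 of EtOH + ABT-888_TRAP, with the others between 1.5 and 2.06. Sorcs3 read 74.9 in that same library, with the others between 51.6 and 51.7. Ntf3 read 1.68 in mouse 11 of EtOH + ABT-888_TRAP, from 27 counts, with the others between 0 and 0.15.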

How the results depend on the processing

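Each count of the 9 tested genes is given with the share of all tested genes called in the same fit. TRAP against total-RNA called 7 in Control mice (59.9%), and 4 when all 22 libraries shared a single fit (42.8%), without Ntrk2, Sort1 and Nptx2. In EtOH + ABT-888 mice it called 6 (41.0%), and 5 with RLE size factors (40.8%), without Nptx2, 7 with exactTest (44.1%), with Sort1, and 6 in the single fit (51.6%), with Sort1 in place of Nptx2. The counts against Control, for the interactions and for EtOH + ABT-888 against EtOH are descriptions, since those differences helped to choose the genes. The counts of TRAP against total-RNA within treated mice use the same levels and are descriptions too. For EtOH_TRAP against Control it was 1 (5.24%), and 2 with exactTest (9.7%), 3 with no filter (6.13%) and 3 in the single fit (8.46%), and DESeq2 called Bdnf in place of Nrn1 (10.6%). For EtOH + ABT-888_TRAP it was 2 (0.476%), and 4 with no filter (1.91%), 3 with DESeq2 (2.91%) and 3 with exactTest (2.25%), all with Bdnf, and the single fit called Bdnf in place of Nptx2 (2.86%). For EtOH_total-RNA it was 3 (17.6%), and 4 with exactTest (21.4%) or no filter (12.8%), both with Bdnf, and 0 in the single fit (1.07%). For EtOH + ABT-888_total-RNA it was 1 (0.263%), and 4 with DESeq2 (4.41%), 4 with exactTest (3.87%), 3 with no filter (1.99%) and 0 in the single fit (0.227%). Leaving out 1 library gave, for TRAP against total-RNA, 5 to 8 in Control (52.5% to 59.6% of all genes), 6 to 7 in EtOH (43.6% to 50.3%) and 5 to 6 in EtOH + ABT-888 (32.3% to 42.2%). Against Control it gave 0 to 2 (EtOH, 0.597% to 11.0%) and 0 to 4 (EtOH + ABT-888, 0.0% to 2.65%) in TRAP, and 0 to 4 (6.24% to 25.7%) and 0 to 6 (0.0% to 6.18%) in total-RNA, where the highest count of EtOH + ABT-888 came without mouse 3. No gene of the 9 passed under any alternative for EtOH + ABT-888 against EtOH or for the interactions. With the mouse as a replicate block, 7 were called in each TRAP against total-RNA comparison (62.5%, 58.8% and 54.3% of all genes) and 0 in the interactions (0.0995% and 0.0%), which added Nptx2 in EtOH and Sort1 in EtOH + ABT-888 and changed no other call. Among all genes, EtOH_TRAP against Control gave 737 calls, and 1487 with DESeq2, 1365 with exactTest, 1472 with no filter and 1191 in the single fit. EtOH + ABT-888_TRAP gave 67, and 409, 316, 454 and 403 in the same order. EtOH_total-RNA gave 2482, and 151 in the single fit. EtOH + ABT-888_total-RNA gave 37, and 621, 544 and 544 with DESeq2, exactTest and no filter. The EtOH interaction gave 3, and 16 with DESeq2, 16 with the likelihood ratio test, 5 with no filter and 14 with the block, and the EtOH + ABT-888 interaction gave 0, and 4, 6 and 1 with the first 3 of these. No called value changed sign. The values that changed sign, 39 in 20 results, were not called under either setting, and 38 of them came from leaving out 1 library. The log2 values over those fits ran, for TRAP against total-RNA, from -0.2 to 0.05 for Sorcs3 in EtOH and from -0.23 to 0.08 in EtOH + ABT-888. Against Control they ran from -0.57 to 0.1 for Nptx1 in EtOH_TRAP and from -0.01 to 0.06 for Sort1 in EtOH_total-RNA. For EtOH + ABT-888 against EtOH they ran in TRAP from -0.93 (without mouse 3) to 0.5 (without mouse 2) for Bdnf, from -0.25 to 0.09 for Ntrk2, -0.01 to 0.18 for Ntrk3, -0.28 to 0.05 for Sort1, -0.24 to 0.08 for Sorcs3, -0.48 to 0.16 for Nrn1 and -0.42 to 0.25 for Nptx1, and in total-RNA from -0.07 to 0.03 for Ntrk3, -0.19 to 0.05 for Sorcs3 and -0.22 to 0.13 for Nrn1. For the EtOH interaction they ran from -0.03 to 0.29 for Sorcs3 and from -0.64 to 0.59 for Nptx2, which was 0.02 with the block. For the EtOH + ABT-888 interaction they ran from -0.03 to 0.29 for Sort1, -0.07 to 0.24 for Sorcs3, -0.09 to 0.48 for Nptx2 and -0.57 to 0.01 for Vgf. The cause of these differences was not tested. Low depth limits Bdnf and Ntf3 in TRAP, and 3 Control mice limit every comparison with Control.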
